A study of Mus musculus with 26 samples.

Results

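The comparison described here was that of Prdm14-/- mouse embryonic stem cells carrying a FLAG-HA-tagged E294K mutant of Prdm14 (2 libraries, called the E294K rescue) with the same Prdm14-/- clones without a transgene (2 libraries). It addresses what Prdm14 still does when its contact with the corepressor Mtgr1 is broken. The 4 libraries were chosen by their labels from the 15 RNA-seq libraries among the 26 samples of the series, and 12310 of the 24015 genes listed, those with an RPKM (reads scaled to gene length and library depth) of at least 1 in at least 2 of the 4 libraries, were tested. All cells derived from the Stella:GFP embryonic stem cell line, whose reporter marks germ cells, were maintained in 2i+LIF and were then grown without feeders in serum+LIF for 5 days before RNA was taken. The Prdm14-/- lines G6 and F10 are single-cell clones made with CRISPR-Cas9, and each was rescued both with E294K and with unmutated FLAG-HA-tagged Prdm14 (the FH-Prdm14 rescue, 2 libraries). The single library of wild-type (wt) cells in serum+LIF is given beside them for reference. Both rescues are transgenes in the 2 knockout clones, so the 2 libraries of a condition are 1 culture each of 2 independent clones. P-values cover only the spread between replicate libraries. That spread was pooled over all conditions of the 15 RNA-seq libraries, wt 2i+LIF cells and the Mtgr1 lines among them.

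Prdm14 is a PR-domain zinc finger protein that binds DNA, is needed for the specification of primordial germ cells, and in embryonic stem cells holds back the passage from naive pluripotency to later epiblast states. It has no known enzymatic activity of its own and works through partners. One of these is Mtgr1, encoded by Cbfa2t2, a member of the ETO family of adaptors that recruit histone deacetylases and other corepressors.

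The glutamate replaced in E294K lies at the end of a coding exon. In the genome build NCBIM37 (mm9) its codon occupies chr1:13114444-13114446 on the minus strand and is the last codon of exon 4 of 8 of Prdm14, which spans chr1:13114444-13114601. The 30 bases that end with it, at chr1:13114444-13114473 and shown because the mutated residue is what separates the rescues, are given 5′ to 3′ in the unmutated reference form, with the glutamate codon in capitals. The coding sequence has 561 codons.
Prdm14, codon of the E294K change: gcacacagggacaactctcggatgtggGAA

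The make-up of the libraries differed along the same line as the comparison. The RNA had been purified on oligo-dT, which retains polyadenylated RNA. The summed RPKM of Rpph1, Rmrp and Rprl3, RNA components of RNase P and RNase MRP that carry no poly(A) tail, was 23.6 in the G6 and 22.6 in the F10 Prdm14-/- library, 21.4 and 25.0 in the FH-Prdm14 libraries, and 1170 (G6) and 2463 (F10) in the E294K libraries. The wt serum+LIF library had 730 and the other libraries lay between 29.6 and 8169, so the E294K libraries were not alone at the high level. Of the 50 tested genes whose symbol starts with Hist, most of which make replication-dependent histone messages without a poly(A) tail, 22 were higher in the E294K rescue and 0 lower, with a median log2 difference of 2.62 against 0.43 for FH-Prdm14. The count was 14 with the clones as a block and 0 to 6 when single libraries were left out. Genes rich in GC were lower in the E294K libraries, with a Spearman correlation across 11170 genes between GC content and the log2 difference of -0.457 in G6 and -0.368 in F10, against -0.212 and -0.0407 for FH-Prdm14 (a description, since genes are not independent replicates). Condition and this library property cannot be told apart within the comparison. Results are therefore given beside a fit that carries the log2 of the summed Rpph1, Rmrp and Rprl3 level as a covariate, called the covariate fit. It was chosen after the data had been examined, and its slope is set by conditions whose replicates differ in that level, the wt 2i+LIF and Mtgr1-/- libraries among them. The same fit without the wt 2i+LIF libraries is called the narrower covariate fit. A call lost in these fits need not mean a smaller estimate. The log2 difference of Pou5f1 was 1.11 without the covariate and 1.15 in the narrower covariate fit, where it was not called (limma, adjusted p = 0.0524). Other estimates did shrink, such as that of Mt3 from 3.11 to 1.76. Depth was between 11596927 and 16419718 reads in the 4 libraries.

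**Figure D1:**
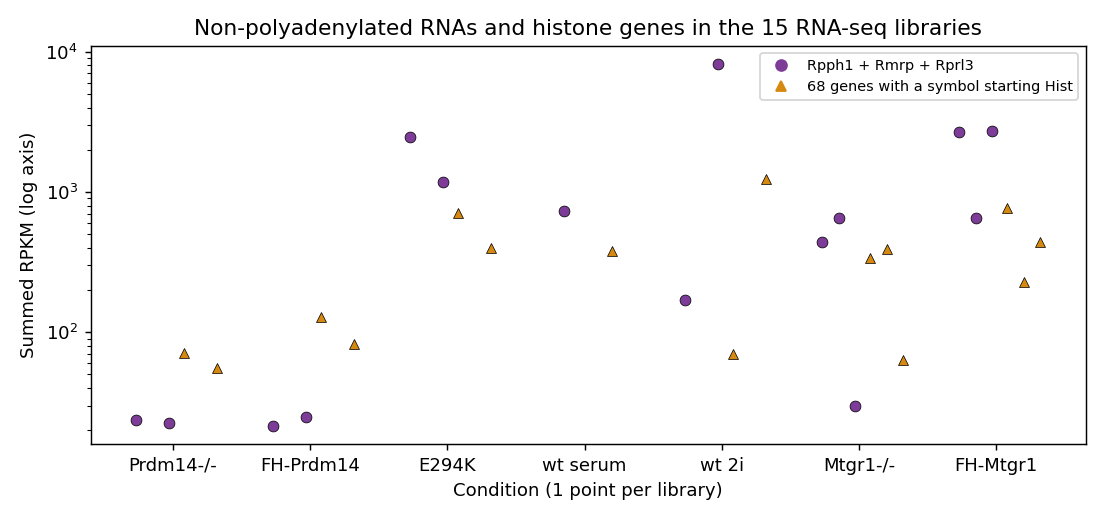
Summed RPKM (log axis) of the non-polyadenylated RNAs Rpph1, Rmrp and Rprl3 (circles) and of 68 histone genes (triangles) in each of the 15 RNA-seq libraries, 1 point per library. Both E294K libraries sit at 1170 or above for the first sum, while both Prdm14-/- and both FH-Prdm14 libraries sit at 25.0 or below.

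All 4 libraries had the transcripts that define embryonic stem cells. Pou5f1 ranged from 308 to 780 RPKM and Sox2 from 278 to 346 RPKM across them. Of 8 fibroblast, 8 neural and 8 blood or endothelial markers, 3 of each list were high enough to be tested. Y-linked genes did not follow the clone names. Ddx3y was at 0.595 RPKM in the Prdm14-/- G6 library and at 5.42, 4.73 and 5.32 RPKM in the Prdm14-/- F10, E294K G6 and E294K F10 libraries, although both G6 libraries carry the same clone name. It was at 1.69 and 1.74 RPKM in the G6 and F10 FH-Prdm14 libraries, so that the F10 line of that rescue differed from the F10 knockout too. The 2 Prdm14-/- libraries also differed more from each other (SD of the log2 difference over genes 0.392) than the 2 E294K libraries did (0.207).

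Prdm14 itself reached RPKM values with the mutant transgene that overlapped those with the unmutated one. Its RPKM was 1.96 (G6) and 3.60 (F10) in Prdm14-/- cells, 105 and 89.9 in the E294K rescue, 116 and 79.8 in the FH-Prdm14 rescue, and 2.77 in wt serum+LIF cells. The knockout libraries therefore lay near the wt serum+LIF value, and since the knockout clones still make an aberrant transcript, reads do not report on the protein. Both rescues carried Prdm14 RNA far above the wt value. The E294K values thus describe a mutant overexpressed at the RNA level, and its effect at the wt level was not measured. The increase in the E294K rescue was 4.94 ± 0.38 on the log2 scale (estimate ± SE, limma, adjusted p = 1.82e-05), and the rescues differed by 0.01 ± 0.38 (adjusted p = 0.987). Cbfa2t2, the gene of Mtgr1, had 16.6 and 16.8 RPKM in Prdm14-/- cells, 31.4 and 32.6 in the E294K rescue, 27.4 and 30.3 in the FH-Prdm14 rescue and 40.7 in wt serum+LIF. It rose by 0.92 ± 0.13 in the E294K rescue (adjusted p = 0.000543 with Benjamini-Hochberg adjustment, as throughout). No difference between the rescues in Cbfa2t2 was detected (0.15 ± 0.13, adjusted p = 0.443).

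The E294K rescue differed from Prdm14-/- cells in 4378 genes, 35.6% of those tested, with 2019 (16.4%) higher and 2359 (19.2%) lower. Counts of list members given below are to be read beside these shares. Both E294K libraries lay above both Prdm14-/- libraries in 4822 of the 12310 genes tested and below both in 4832. Ranges without overlap were thus common and by themselves set no gene apart. The FH-Prdm14 rescue, set against the same Prdm14-/- libraries, differed in 2942 genes (23.9%), with 1481 (12%) higher and 1461 (11.9%) lower. The direct comparison of the rescues, which uses no Prdm14-/- library, gave 2223 genes (18.1%), with 810 (6.58%) higher and 1413 (11.5%) lower in the E294K rescue. In the covariate fit 1391 genes were called between the E294K rescue and Prdm14-/- cells, and of the 2019 higher and 2359 lower genes 467 and 572 were still called. The narrower covariate fit called 113 genes, 26 of the 2019 and 78 of the 2359 among them. Between the FH-Prdm14 rescue and Prdm14-/- cells the covariate fit called 4024 genes and the narrower one 4384. The order of the E294K and FH-Prdm14 counts thus depended on the covariate. Leaving out the Prdm14-/- G6 library gave the lowest count of any single omission, 1575. Because these are bulk cultures, fewer cells of a kind and less RNA per cell cannot be told apart in any of the values that follow.

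**Figure D2:**
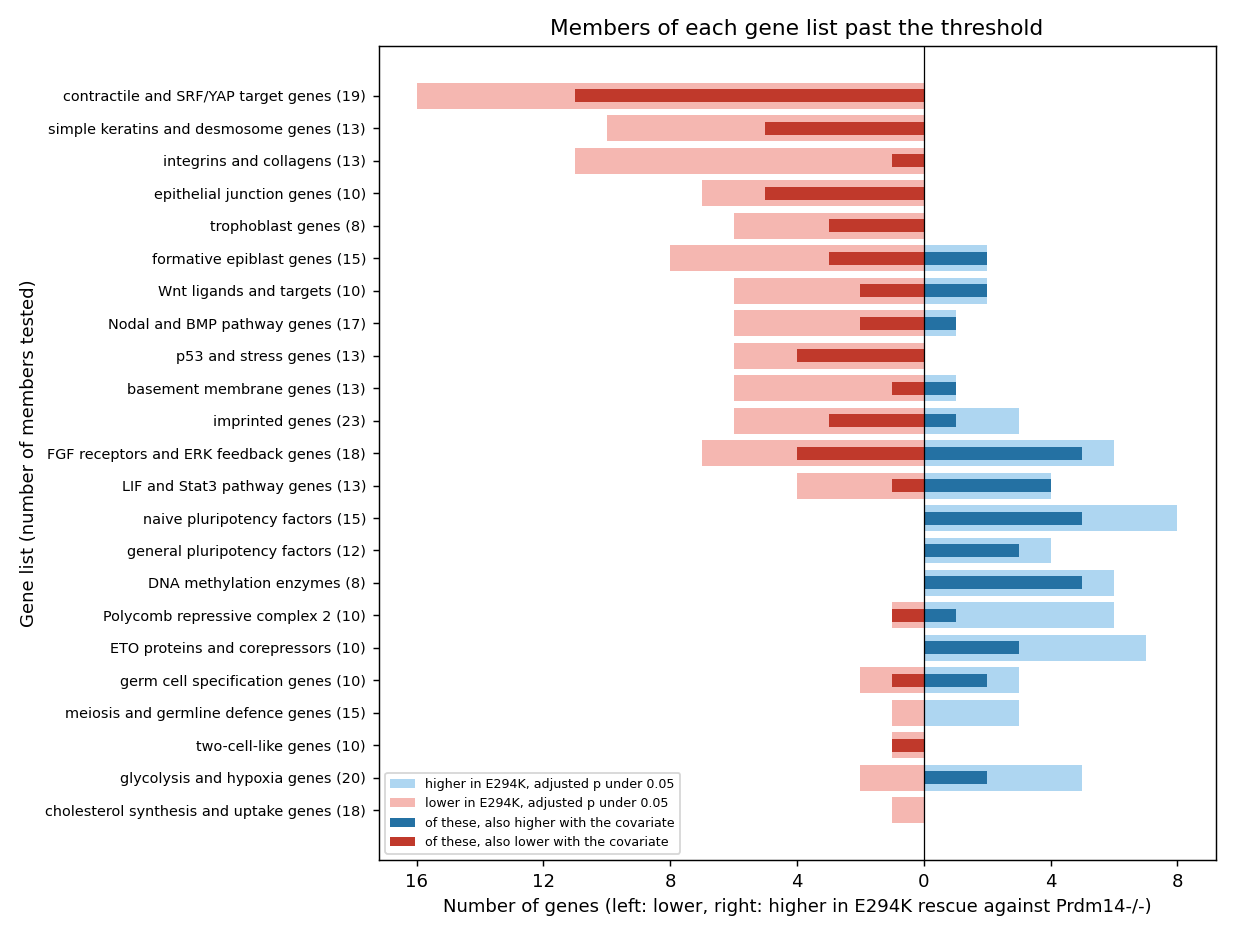
Number of genes of each list that were higher (right) or lower (left) in the E294K rescue against Prdm14-/- cells at an adjusted p under 0.05 (pale bars), and how many of these were also called in the covariate fit (dark bars), with the number of members tested in brackets. Contractile genes have 16 of 19 members to the left and naive pluripotency factors 8 of 15 to the right.

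The 12 genes with the largest increases were, Prdm14 apart, RNAs of the kind that sets the libraries apart. They were Rpph1, Rmrp, Rprl3, Mir6516, Prdm14, Hist1h4f, Hist1h4a, Hist2h2bb, Snord17, Hist1h2bg, Hist1h1d and Hist1h1b, with log2 differences from 6.31 (Rpph1) to 3.52 (Hist1h1b). Rmrp, for example, had 16.3 and 15.9 RPKM in Prdm14-/- cells and 822 and 1815 in the E294K rescue. None of the 11 was called higher in the covariate fit. For Rpph1, Rmrp and Rprl3, which make up the covariate, this was fixed in advance and is no finding. Each of the 11 lost its call when at least 1 of the 4 libraries was left out (the adjusted p of Rpph1 rose to 0.0711 without Prdm14-/- G6), and with the clones as a block Snord17 (adjusted p = 0.0961), Hist1h2bg (0.0549) and Hist1h1b (0.0635) were not called. Beyond these, 4 increases were picked out after their values were seen. Mt3, a metallothionein, had 1.12 and 1.16 RPKM in Prdm14-/- cells, 14.9 and 12.6 in the E294K rescue and 1.59 and 2.31 in the FH-Prdm14 rescue. It was 3.11 ± 0.38 higher on the log2 scale than in Prdm14-/- cells (adjusted p = 0.000234) and 2.55 ± 0.38 higher than with FH-Prdm14 (adjusted p = 0.00111). Cobl, which encodes an actin nucleator, rose from 2.45 and 2.62 to 16.5 and 13.8 RPKM, and A2m, a protease inhibitor, rose from 0.665 and 2.47 to 11.3 and 10.7. Spry4, a feedback inhibitor of receptor tyrosine kinases, rose from 7.72 and 9.03 to 37.5 and 38.4. These 4 genes were called in the covariate fit (adjusted p between 0.00252 for Cobl and 0.0129 for Mt3), and Cobl and Spry4 also in the narrower one (0.0104 and 0.0215), but not Mt3 (0.162) or A2m (0.0928).

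The 12 genes with the largest decreases were, in order, Acta1, Jph2, Sept4, Foxj1, Cryab, Mir3960, Thbs1, Mir2861, Bgn, Scarf2, Tnnc1 and Acta2, with log2 differences from -4.71 to -3.58. Several are genes of muscle. Jph2, which ties the plasma membrane to the calcium store of muscle, had 20.2 and 19.3 RPKM in Prdm14-/- cells and 0.635 and 0.644 in the E294K rescue. Foxj1, the master regulator of motile cilia, had 30.9 and 25.8 against 1.36 and 1.39, and Tnnc1, slow troponin C, had 12.1 and 15.2 against 0.626 and 0.520. In each of the 3 the ranges lay far apart, and FH-Prdm14 gave 1.90 and 1.63 (Jph2), 3.89 and 3.73 (Foxj1) and 0.775 and 1.57 RPKM (Tnnc1). Jph2 and Foxj1 were thus lower in the E294K than in the FH-Prdm14 rescue, by -0.99 ± 0.32 (adjusted p = 0.0480) and -1.20 ± 0.31 (adjusted p = 0.0187), as was Cryab, a small heat shock protein, by -1.38 ± 0.31 (adjusted p = 0.00997). In the covariate fit none of these 3 differences was called (adjusted p = 0.952, 0.0906 and 0.238). Mir3960 and Mir2861 lie within other transcription units, share their reads, and were not called in the covariate fit (adjusted p = 0.758 and 0.965). Their call was lost whichever library was left out, while the other 10 decreases kept theirs under every single omission and in the covariate fit. In the narrower covariate fit Sept4 (adjusted p = 0.0572), Bgn (0.0952), Scarf2 (0.309) and Acta2 (0.371) were not called and the remaining 6 were.

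Contractile genes and targets of the serum response factor SRF and of YAP, regulators that answer to actin dynamics and cell tension, fell as a group. Of the 19 tested (20 in the list), 16 were lower in the E294K rescue and 0 higher, with a median log2 difference of -1.82 against 0.005 over all genes tested. Acta1, skeletal muscle actin, had 95.9 and 117 RPKM in Prdm14-/- cells, 4.12 and 3.06 in the E294K rescue, 3.22 and 1.45 in the FH-Prdm14 rescue and 0.241 in wt serum+LIF. Its 2 rescues overlapped and both lay far below the knockout. The difference in the E294K rescue was -4.71 ± 0.55 (adjusted p = 0.000191), 26.2-fold on the log2(RPKM + 0.5) scale, and the rescues differed by 0.59 ± 0.55 (adjusted p = 0.480, and 0.00717 in the covariate fit). Acta2, smooth muscle actin, had 28.5 and 27.7 RPKM in Prdm14-/- cells, 2.22 and 1.59 in the E294K and 2.12 and 0.511 in the FH-Prdm14 rescue.

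Secreted targets of the same regulators behaved alike. Thbs1, the matrix protein thrombospondin 1, had 72.3 and 53.5 RPKM in Prdm14-/- cells, 3.45 and 4.29 in the E294K rescue and 1.65 and 0.858 in the FH-Prdm14 rescue. Cyr61, a matricellular protein and classical YAP target, had 212 and 206 RPKM in Prdm14-/- cells, 19.9 and 20.7 in the E294K rescue and 30.1 and 25.0 in the FH-Prdm14 rescue, a difference of -3.33 ± 0.34 (adjusted p = 9.73e-05). Ctgf fell from 115 and 104 to 12.6 and 14.9. The actin-binding Tagln was the one member higher in the E294K than in the FH-Prdm14 rescue: it had 144 and 201 RPKM in Prdm14-/- cells, 20.9 and 26.0 with E294K and 8.54 and 5.32 with FH-Prdm14, a difference between the rescues of 1.71 ± 0.32 (adjusted p = 0.00403). Tagln2 was the one member lower in the E294K rescue, with 119 and 121 RPKM against 175 and 174 (-0.53, adjusted p = 0.0130, and 0.207 in the covariate fit). Tpm1 (tropomyosin), Cnn2 (calponin), Ankrd1 and Actc1 (cardiac actin) also fell, with log2 differences between -2.74 and -1.82. Members without a call included Srf itself (47.3 and 39.8 against 27.2 and 24.8 RPKM, adjusted p = 0.0517) and Flna, filamin A (159 and 144 against 89.6 and 97.4, adjusted p = 0.0641). Of the 16, 11 remained called in the covariate fit, while Ctgf (adjusted p = 0.0602), Cnn1 (0.815), Myl9 (0.126), Actc1 (0.0874) and Vcl (0.911) did not, and 5 remained in the narrower one. Between 12 and 14 members were called lower when single libraries were left out, Cnn1 losing its call without either E294K library or Prdm14-/- F10 (adjusted p up to 0.308), Myl9 without E294K G6 (0.0588) or Prdm14-/- F10 (0.0541), and Vcl, vinculin, without any 1 of the 4 (0.0755 to 0.133). With the clones as a block Cnn1 and Vcl had adjusted p = 0.0872 and 0.0618.

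Promoters of the list were searched for the CArG box, the sequence that SRF binds, on both strands of 300-base windows from 250 bases before to 50 after the start (RefSeq, GRCm38.p6). A box was found in 6 of the 15 list members with a promoter sequence (40.0%) and in 5 of the 13 that were called lower (38.5%), and in 488 of 27025 gene symbols (1.81%). As the list was made of SRF and YAP targets, its share of boxes is no finding, and the 2 members not called lower hold boxes in 1 case, Srf. A match describes the letters only and shows no binding. The 5 boxes of the lowered genes are shown in capitals, each in 30 bases, to show the SRF motif in these promoters.
Acta1, chr8:123894829-123894858, minus strand, 73 bases before the start: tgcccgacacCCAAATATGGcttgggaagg
Actc1, chr2:114052903-114052932, minus strand, 47 bases before the start: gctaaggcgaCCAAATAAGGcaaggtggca
Cnn2, chr10:79988534-79988563, plus strand, 56 bases before the start: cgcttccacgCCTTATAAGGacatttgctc
Myl9, chr2:156775293-156775322, plus strand, 161 bases before the start: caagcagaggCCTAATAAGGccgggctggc
Vcl, chr14:20929161-20929190, plus strand, 227 bases before the start: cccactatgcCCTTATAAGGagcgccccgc

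Keratins and junction genes, which build the cytoskeleton and contacts of epithelia, fell as well. Of 13 tested keratin and desmosome genes 10 were lower and 0 higher (median -1.66), and of 10 epithelial junction genes 7 were lower and 0 higher (median -0.84). Krt18 had 575 and 466 RPKM in Prdm14-/- cells, 63.3 and 65.4 in the E294K rescue, 29.9 and 21.7 in the FH-Prdm14 rescue and 52.2 in wt serum+LIF. The E294K libraries lay between the knockout and FH-Prdm14 without overlap, -3.00 ± 0.25 from the former (adjusted p = 2.81e-05) and 1.32 ± 0.25 from the latter (adjusted p = 0.00416). Krt8, its partner in simple epithelia, had 549 and 396, then 63.0 and 63.0, then 22.9 and 18.0 RPKM in the same order. Krt7 (87.2 and 67.4 to 8.64 and 8.83 RPKM) and Krt19 (174 and 158 to 24.7 and 26.9) fell without a detected difference between the rescues, with -0.46 ± 0.26 (adjusted p = 0.245) and 0.32 ± 0.22 (adjusted p = 0.325). Perp, a desmosome component and p53 target, fell to 11.6 and 11.9 RPKM from 78.2 and 49.2 and was at 23.5 and 23.7 with FH-Prdm14, a difference between the rescues of -0.98 ± 0.22 (adjusted p = 0.0111). The tight junction gene Cldn3 fell from 93.1 and 58.7 to 12.8 and 10.8, and Cldn7 from 109 and 86.2 to 33.7 and 39.7. Cdh1, E-cadherin, had 177 and 169 RPKM in Prdm14-/- cells and 150 and 148 in the E294K rescue (adjusted p = 0.531), and the splicing factor Esrp1 had 29.7 and 25.4 against 26.6 and 27.0 (adjusted p = 0.915). In the covariate fit 5 of the 10 keratin and desmosome calls and 5 of the 7 junction calls remained, Krt7, Krt18, Krt19, Perp, Cldn3 and Cldn7 among them and Krt8 not (adjusted p = 0.0506). The narrower covariate fit left 4 of the 10 and 0 of the 7. The counts were 8 to 10 and 4 to 5 when single libraries were left out.

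Adhesion to matrix and trophoblast genes showed the same direction with less stable counts. Of 13 integrin and collagen genes tested, 11 were lower and 0 higher (median -1.32), but 1 call remained in the covariate fit, 0 in the narrower one, and 2 to 9 when single libraries were left out. Itgb5 had 42.6 and 30.3 RPKM in Prdm14-/- cells and 11.6 and 10.8 in the E294K rescue, a difference of -1.64 ± 0.25 (adjusted p = 0.000857). Itga6, the laminin receptor subunit of stem cells, had 33.1 and 35.2 against 36.9 and 37.2 (adjusted p = 0.680). Of 8 trophoblast genes tested, 3 of which are the keratins named above, 6 were lower (median -1.35), and 3 calls remained in each of the covariate fits. Eomes, a T-box factor of trophoblast and early mesoderm, fell from 5.50 and 4.76 to 1.98 and 1.56 RPKM (adjusted p = 0.00125). Gata3 fell from 3.73 and 2.01 to 0.625 and 0.871 RPKM (adjusted p = 0.0108), but not in the covariate fit (0.207) or without E294K G6 (0.0780) or Prdm14-/- G6 (0.119).

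**Figure D3:**
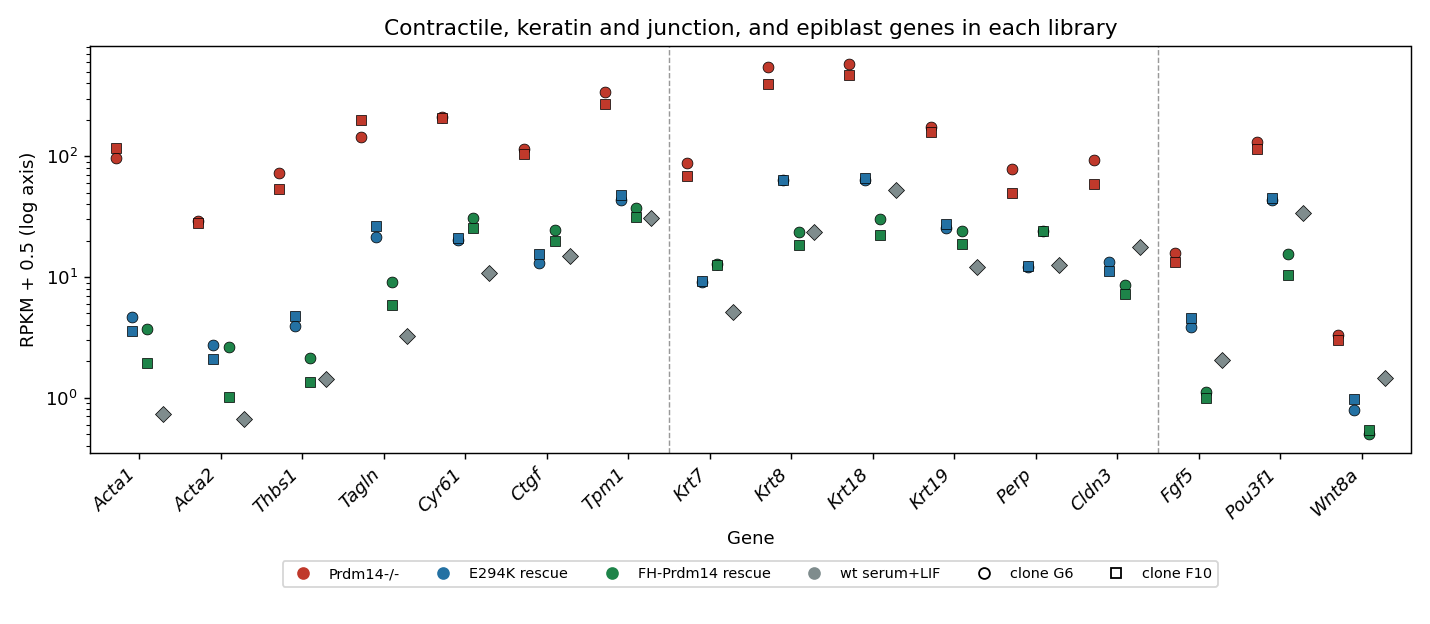
RPKM + 0.5 (log axis) of contractile genes (left block), keratin and junction genes (middle) and epiblast genes (right) in each Prdm14-/-, E294K, FH-Prdm14 and wt serum+LIF library, with circles for clone G6 and squares for clone F10. For each gene both E294K points lie below both Prdm14-/- points, which held for 4832 of the 12310 genes tested. For Fgf5 the E294K points (3.34 and 4.04 RPKM) lie above both FH-Prdm14 points (0.622 and 0.497 RPKM).

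Genes of the formative epiblast, the state that follows naive pluripotency, were split. Of the 15 tested, 8 were lower and 2 higher in the E294K rescue (median -0.71, FH-Prdm14 -1.49), and in the direct comparison 8 were higher and 0 lower with E294K than with FH-Prdm14. Fgf5, the growth factor that marks the primed epiblast, had 15.3 and 12.8 RPKM in Prdm14-/- cells, 3.34 and 4.04 in the E294K rescue, 0.622 and 0.497 in the FH-Prdm14 rescue and 1.56 in wt serum+LIF. It fell by 1.80 ± 0.20 in the E294K rescue (adjusted p = 0.000154) and remained 1.98 ± 0.20 above FH-Prdm14 (adjusted p = 0.000102), and both calls held in the covariate fit (adjusted p = 0.00687 and 0.00269). Its value was therefore intermediate, without overlap on either side. Pou3f1, a POU factor of the epiblast, had 130 and 114, then 43.2 and 44.3, then 14.9 and 9.86 RPKM in the same order. Its difference of -1.47 ± 0.40 (adjusted p = 0.0148) was not called in the covariate fit (-0.17, adjusted p = 0.770) or without either E294K library or Prdm14-/- G6 (adjusted p up to 0.100). Wnt8a fell from 2.84 and 2.51 to 0.290 and 0.481 RPKM (adjusted p = 0.00157), and Cldn6 from 255 and 243 to 99.6 and 105 (adjusted p = 0.00152). Lef1, the nuclear effector of Wnt signalling, went the other way, from 1.05 and 1.33 to 8.11 and 8.97 RPKM, an increase of 2.42 ± 0.26 (adjusted p = 0.000115), with FH-Prdm14 at 6.23 and 6.40. In the covariate fit 3 of the 8 decreases and both increases remained, in the narrower one 1 of each, and 3 to 7 decreases were called when single libraries were left out.

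The markers that the study names for the RNA-seq were chosen by it on these samples, so that their directions are not independent evidence. Of its 4 epiblast markers (Fgf5, Dnmt3b, Pou3f1 and Wnt8a) 3 were lower in the E294K rescue, and of its 4 extraembryonic endoderm markers all were. Krt19 is given above. Fgfr2 fell from 14.6 and 12.2 to 2.28 and 2.38 RPKM (adjusted p = 0.000351), Sparc, a matrix glycoprotein, from 139 and 152 to 82.2 and 86.5 (adjusted p = 0.00300), and the imprinted non-coding RNA H19 from 646 and 389 to 143 and 187 (adjusted p = 0.0131). H19 was at 51.4 and 52.0 RPKM with FH-Prdm14, below the E294K rescue (1.65 ± 0.43, adjusted p = 0.0196). Sparc and H19 were not called in the covariate fit (adjusted p = 0.0528 and 0.0798), and H19 not without E294K G6 (0.0905) or Prdm14-/- G6 (0.129). Of 6 tested regulators of primitive endoderm, 1 was higher and 1 lower, or 33.3% called, near the 35.6% over all genes. Dab2, an endocytic adaptor of that lineage, had 4.29 and 5.28 RPKM in Prdm14-/- cells, 5.31 and 8.36 in the E294K rescue and 0.992 and 0.657 in the FH-Prdm14 rescue, so that it did not pass the test against the knockout (adjusted p = 0.151) and was 2.45 ± 0.24 above FH-Prdm14 (adjusted p = 8.07e-05).

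Factors of the naive state rose in part. Of 15 naive pluripotency factors tested, 8 were higher and 0 lower in the E294K rescue (median 0.88), whereas 14 were higher in the FH-Prdm14 rescue (median 1.70), and 7 were lower with E294K than with FH-Prdm14 in the direct comparison. Zfp42, the marker Rex1, had 59.1 and 126 RPKM in Prdm14-/- cells, 313 and 278 in the E294K rescue, 306 and 332 in the FH-Prdm14 rescue and 184 in wt serum+LIF. Its rescues overlapped (difference -0.11, adjusted p = 0.869), and its increase of 1.77 ± 0.40 (adjusted p = 0.00595) was not called in the covariate fit (0.0825). Esrrb, an orphan nuclear receptor, had 38.9 and 54.6, then 88.1 and 83.1, then 140 and 139 RPKM, an increase of 0.88 ± 0.19 in the E294K rescue (adjusted p = 0.00517) that stopped -0.70 ± 0.19 short of FH-Prdm14 (adjusted p = 0.0252). Klf4, a Krüppel-like factor, had 15.8 and 15.6, then 42.3 and 35.9, then 111 and 101 RPKM, with an increase of 1.29 ± 0.38 (adjusted p = 0.0215) and a shortfall of -1.43 ± 0.38 (adjusted p = 0.0225). Both factors were thus intermediate, with no overlap between the 3 conditions. Tet2, a 5-methylcytosine oxidase, rose from 2.86 and 4.40 to 19.6 and 19.7 RPKM (2.32 ± 0.40, adjusted p = 0.00154).

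For other naive factors no increase was detected with E294K. Klf2 had 78.3 and 85.9 RPKM in Prdm14-/- cells, 82.4 and 78.3 in the E294K rescue and 273 and 230 in the FH-Prdm14 rescue, and Nanog had 77.5 and 90.2, then 108 and 96.5, then 213 and 208. The E294K libraries overlapped the knockout for Klf2 and lay just above it for Nanog (adjusted p = 0.970 and 0.421), and E294K minus FH-Prdm14 was -1.64 ± 0.48 for Klf2 (adjusted p = 0.0343) and -1.04 ± 0.27 for Nanog (adjusted p = 0.0192). Tbx3 had 10.1 and 10.6, then 24.4 and 20.7, then 66.5 and 66.1 RPKM, with adjusted p = 0.0689 against the knockout. In the covariate fit 5 of the 8 increases remained (1 in the narrower one), and Tbx3 was called (adjusted p = 0.0259). None of the differences from FH-Prdm14 given here for Esrrb, Klf4, Klf2, Nanog and Tbx3 was called there (adjusted p from 0.348 to 0.699). Without a single library 1 to 7 naive factors were called higher. Klf4 lost its call without any 1 of the 4 libraries (adjusted p 0.0679 to 0.115), and Esrrb and Zfp42 without Prdm14-/- G6 (0.0655 and 0.0797), the library with the lowest Zfp42 value. With the clones as a block Klf4 had adjusted p = 0.0520.

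Of 12 general pluripotency factors tested, 4 were higher and 0 lower (median 0.41), or 33.3% called, near the 35.6% over all genes. All 4 calls were increases, and 16.4% of all genes were called higher. None of the 4 remained in the narrower covariate fit, and 2 to 3 factors were called higher when single libraries were left out. Pou5f1, encoding Oct4, had 308 and 395 RPKM in Prdm14-/- cells, 780 and 728 in the E294K rescue, 634 and 709 in the FH-Prdm14 rescue and 585 in wt serum+LIF, an increase of 1.11 ± 0.15 (adjusted p = 0.000393, and 0.00416 in the covariate fit). Tdgf1, the Nodal co-receptor Cripto, rose from 99.7 and 179 to 421 and 411 RPKM (1.64 ± 0.31, adjusted p = 0.00252). The other increases were those of Dppa2 (15.1 and 16.5 to 41.7 and 38.9 RPKM) and Sall4 (65.5 and 60.0 to 85.9 and 91.5), which lost their call without any 1 of the 4 libraries (adjusted p 0.0881 to 0.183) and with the clones as a block (0.0637 and 0.0821). Sox2 had 286 and 346 RPKM in Prdm14-/- cells and 302 and 278 in the E294K rescue (adjusted p = 0.688), with overlapping ranges.

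Of the enzymes of DNA methylation, Dnmt3a and Dnmt3l were called in opposite directions in the rescues. Dnmt3a and Dnmt3b add methyl groups de novo with their cofactor Dnmt3l, Dnmt1 and Uhrf1 maintain them, and Tet enzymes oxidize them. Of 8 tested, 6 were higher and 0 lower in the E294K rescue (median 0.87), against 2 higher and 3 lower with FH-Prdm14 (median -0.28). Of the 6, 5 remained in the covariate fit and 0 in the narrower one, with 4 to 6 being called without a single library. Dnmt3a had 15.0 and 17.7 RPKM in Prdm14-/- cells, 31.7 and 34.4 in the E294K rescue, 10.8 and 10.0 in the FH-Prdm14 rescue and 29.0 in wt serum+LIF. It rose by 1.00 ± 0.15 with E294K (adjusted p = 0.000739) and fell by 0.63 with FH-Prdm14 (adjusted p = 0.00935), and the rescues differed by 1.62 ± 0.15 (adjusted p = 8.07e-05, and 0.00123 in the covariate fit).

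Dnmt3l followed the same order, with 87.4 and 81.0, then 169 and 140, then 53.1 and 49.7 RPKM, and 152 in wt serum+LIF. It rose by 0.87 ± 0.18 with E294K (adjusted p = 0.00410, and 0.0501 without E294K G6) and the rescues differed by 1.57 ± 0.18 (adjusted p = 0.000229). Dnmt3b had 131 and 81.4 RPKM in Prdm14-/- cells, 182 and 198 in the E294K rescue, 22.8 and 16.6 in the FH-Prdm14 rescue and 150 in wt serum+LIF. Its difference from the knockout did not pass the test (0.88 ± 0.34, adjusted p = 0.0644) but was called in the covariate fit (adjusted p = 0.0225) and after adjustment for GC content (0.0249). The rescues differed by 3.26 ± 0.34 (adjusted p = 0.000124, and 0.000497 in the covariate fit), the E294K libraries lying above and the FH-Prdm14 libraries below both knockout libraries. Otx2, the homeobox factor of the formative epiblast, had 34.2 and 57.1, then 64.6 and 68.6, then 15.5 and 15.4 RPKM, with adjusted p = 0.0763 against the knockout and a difference between the rescues of 2.07 ± 0.24 (adjusted p = 0.000255). Tet1 rose from 15.4 and 20.3 to 57.9 and 64.8 RPKM, and Dnmt1 from 60.2 and 51.3 to 87.6 and 88.4, the latter not called in the covariate fit (adjusted p = 0.221) or without E294K G6 (0.0541) or E294K F10 (0.0581).

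**Figure D4:**
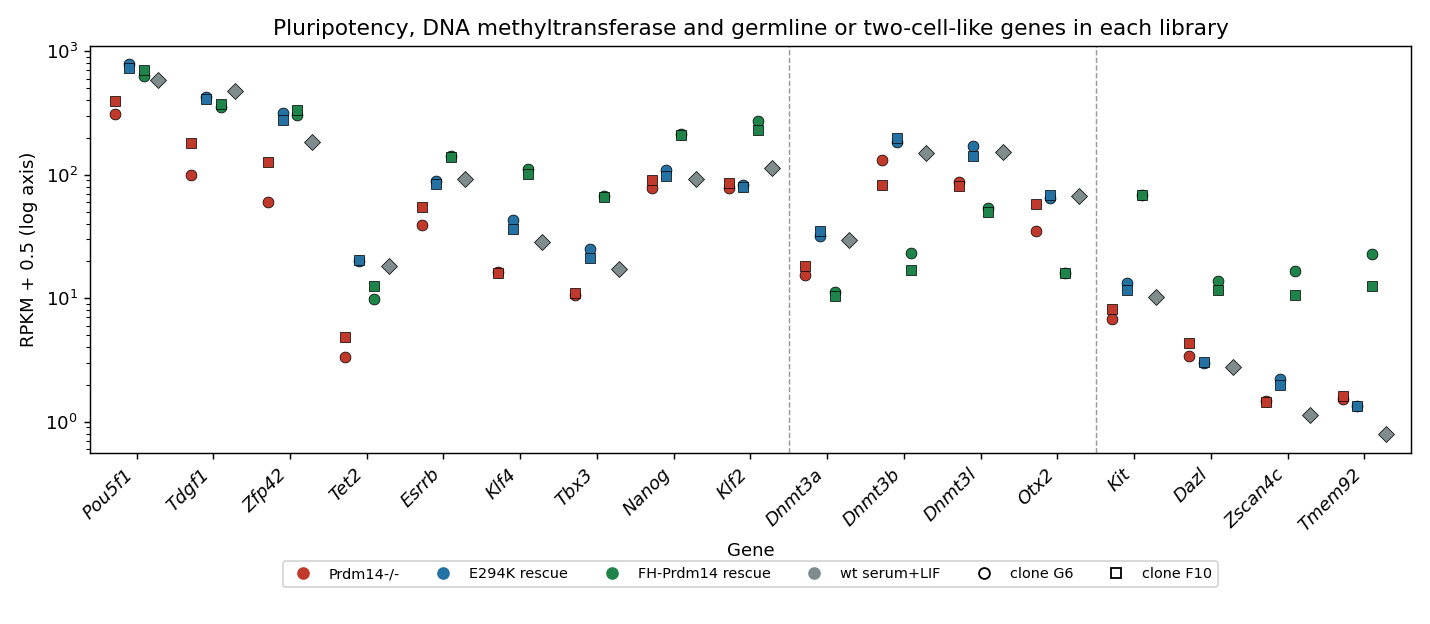
RPKM + 0.5 (log axis) of pluripotency genes (left block), DNA methyltransferases and Otx2 (middle) and germ cell or two-cell-like genes (right) in each Prdm14-/-, E294K, FH-Prdm14 and wt serum+LIF library, with circles for clone G6 and squares for clone F10. For Dnmt3b the E294K points (182 and 198 RPKM) lie above and the FH-Prdm14 points (22.8 and 16.6 RPKM) below the knockout, and for Tmem92 the E294K points stay near the knockout while FH-Prdm14 reaches 22.2 RPKM.

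Genes of the rare cells that resemble 2-cell embryos, and several germ cell genes, were not detected as raised by the mutant. Of 10 tested two-cell-like genes (19 of a list of 20 were in the files), 0 were higher and 1 was lower in the E294K rescue, with a median of -0.27, whereas all 10 were higher with FH-Prdm14 (median 3.14) and all 10 were lower with E294K than with FH-Prdm14. The share called against the knockout was 10.0%, against 35.6% over all genes. Genes of this list have close copies, so that the share of reads of each is uncertain, and those that passed the filter need not stand for the list. Tmem92 and Usp17lc passed it only through the Prdm14-/- libraries, which favours a decrease with E294K. The 1 decrease, that of Usp17lc, and the sign of the median are therefore no finding. Zscan4c, a telomere-linked factor of that state, had 0.985 and 0.958 RPKM in Prdm14-/- cells, 1.71 and 1.50 in the E294K rescue and 16.1 and 10.2 in the FH-Prdm14 rescue, with adjusted p = 0.443 against the knockout. The E294K rescue was -2.67 ± 0.51 below FH-Prdm14 (adjusted p = 0.00416). Tmem92 had 1.04 and 1.13, then 0.835 and 0.833, then 22.2 and 12.1 RPKM (between the rescues -3.66 ± 0.37, adjusted p = 0.000101). Usp17lc, a deubiquitinase of a multicopy family, had 1.37 and 1.33, then 0.185 and 0.323, then 18.6 and 11.8 RPKM, and was lower than the knockout (-1.30 ± 0.38, adjusted p = 0.0201), a call lost without any 1 of the 4 libraries (0.0591 to 0.114).

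Of 10 germ cell specification genes 3 were higher and 2 lower (median 0.18), with 1 to 2 higher when single libraries were left out, and 5 were lower with E294K than with FH-Prdm14. The higher genes were Kit and the general factors Pou5f1 and Sall4. Kit, the receptor of stem cell factor on germ cells, had 6.32 and 7.74 RPKM in Prdm14-/- cells, 12.7 and 11.1 in the E294K rescue and 67.6 and 67.9 in the FH-Prdm14 rescue. Its increase with E294K was 0.72 ± 0.23 (adjusted p = 0.0309), and the rescues differed by -2.46 ± 0.23 (adjusted p = 8.07e-05). The increase was not called in the covariate fit (adjusted p = 0.0616) or without either E294K library or Prdm14-/- G6 (0.0862 to 0.192), while the difference between the rescues was (0.00267). Dazl, an RNA-binding protein of germ cells, had 2.88 and 3.86, then 2.50 and 2.55, then 13.4 and 11.2 RPKM, and Prdm1, encoding Blimp1, had 4.33 and 4.24, then 3.95 and 4.07, then 6.39 and 6.80. Neither passed the test against the knockout (adjusted p = 0.225 and 0.752), and both were lower with E294K than with FH-Prdm14 (-2.07 ± 0.22, adjusted p = 0.000117, and -0.65 ± 0.19, adjusted p = 0.0331, the latter 0.0548 in the covariate fit). Tfap2c, the AP-2γ factor that acts with Prdm14 and Blimp1, fell from 27.2 and 30.3 to 14.0 and 12.2 RPKM with E294K and was at 38.6 and 35.4 with FH-Prdm14, so that it lay below the knockout by -1.10 ± 0.20 (adjusted p = 0.00226) and below FH-Prdm14 by -1.46 ± 0.20 (adjusted p = 0.000740), the first of which was not called in the covariate fit (0.0818). Dnd1 fell from 32.1 and 28.7 to 8.25 and 7.46 RPKM (adjusted p = 0.000942). Of 15 meiosis and germline defence genes 3 were higher (1 to 4 when single libraries were left out) and 1 lower (median -0.22), none of which remained in the covariate fit. The share called, 26.7%, was below the 35.6% over all genes.

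Signalling genes changed in both directions. Of 18 FGF receptor and ERK feedback genes 6 were higher and 7 lower (median -0.10), or 72.2% called against 35.6% over all genes. The targets of ERK Egr1 (5.14 and 7.07 to 22.8 and 22.1 RPKM), Etv4 (8.12 and 8.64 to 27.1 and 26.6) and Etv5 (98.1 and 112 to 188 and 186) rose, with adjusted p of 0.00120, 0.00191 and 0.000881. Spry1 fell from 60.6 and 57.1 to 15.1 and 15.0 RPKM (-1.93 ± 0.20, adjusted p = 0.000104) while its relative Spry4 rose, as given above. Fgfr1 fell from 47.7 and 28.7 to 16.2 and 15.1 RPKM (adjusted p = 0.0102), but not in the covariate fit (0.260) or without E294K F10 (0.0651) or Prdm14-/- G6 (0.119). Dusp6, the ERK phosphatase, had 46.9 and 49.6 RPKM in Prdm14-/- cells and 43.7 and 49.1 in the E294K rescue (adjusted p = 0.917) and was at 16.4 and 18.7 with FH-Prdm14. The covariate fit kept 5 of the 6 increases and 4 of the 7 decreases and the narrower one 2 and 1, while 4 to 6 genes were called in each direction when single libraries were left out.

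In the LIF pathway, which sustains pluripotency through Stat3, 4 of 13 genes were higher and 4 lower (median 0.35), with 2 to 3 lower when single libraries were left out and 1 of the increases and 0 of the decreases in the narrower covariate fit. The share called was 61.5%, against 35.6% over all genes. Stat3 rose from 14.4 and 14.4 to 25.8 and 27.1 RPKM (0.86 ± 0.11, adjusted p = 0.000394) and the receptor Lifr from 3.55 and 6.24 to 10.4 and 11.1, at the levels of the FH-Prdm14 rescue (27.0 and 27.0, and 10.8 and 12.9). The kinases Pim1 and Pim2, both Stat3 targets, moved apart: Pim2 rose from 21.5 and 12.3 to 37.2 and 39.6 RPKM (1.21 ± 0.24, adjusted p = 0.00338), and Pim1 fell from 244 and 138 to 78.8 and 73.8 (-1.26 ± 0.28, adjusted p = 0.00538), the latter not called in the covariate fit (0.159) or without Prdm14-/- G6 (0.0711).

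The secreted ligands Bmp7 and Wnt7b were lower with the mutant than in the knockout, while their values with FH-Prdm14 overlapped the knockout or lay just above it. Bmp7 had 11.3 and 8.11 RPKM in Prdm14-/- cells, 2.09 and 1.92 in the E294K rescue and 10.6 and 9.27 in the FH-Prdm14 rescue, a difference of -2.01 ± 0.21 (adjusted p = 0.000101) and a difference from FH-Prdm14 of -2.05 ± 0.21 (adjusted p = 0.000102, and 0.00273 in the covariate fit). Wnt7b had 19.4 and 17.4, then 3.50 and 3.02, then 20.2 and 23.0 RPKM (against the knockout -2.33 ± 0.40, adjusted p = 0.00154, and 0.0782 in the covariate fit). Wnt4 fell from 8.62 and 6.07 to 1.13 and 0.892 RPKM and was at 1.47 and 1.01 with FH-Prdm14, so that this ligand did not separate the rescues (-0.19 ± 0.33, adjusted p = 0.715). Of 10 Wnt ligands and targets tested 2 were higher and 6 lower (median -1.31), and of 17 Nodal and BMP pathway genes 1 was higher and 6 lower (median -0.59), with 2 of the 6 decreases remaining in the covariate fit in each list and 0 in the narrower one. Without a single library 4 to 5 Wnt genes and 3 to 6 Nodal and BMP genes were called lower. The share of Wnt genes called was 80.0%. That of Nodal and BMP genes, 41.2%, was near the 35.6% over all genes. Most calls in both lists were decreases, and 19.2% of all genes were called lower. Lefty1, a Nodal inhibitor, fell from 96.4 and 87.4 to 25.7 and 21.8 RPKM (adjusted p = 0.00353, and 0.196 in the covariate fit). Id1, a direct target of BMP signalling, had 86.9 and 62.1 RPKM in Prdm14-/- cells and 63.6 and 77.3 in the E294K rescue, with overlapping ranges (adjusted p = 0.915), and 15.2 and 17.4 in the FH-Prdm14 rescue.

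Of 13 genes of stress and of p53, the transcription factor of the DNA damage response, 6 were lower and 0 higher (median -0.64). The share called was 46.2%, all lower, against 35.6% of all genes called and 19.2% called lower. In the direct comparison 8 were lower with E294K than with FH-Prdm14, as were 11.5% of all genes. Cdkn1a, the cell cycle inhibitor p21, had 97.8 and 98.4 RPKM in Prdm14-/- cells, 23.2 and 25.9 in the E294K rescue, 62.1 and 66.5 in the FH-Prdm14 rescue and 46.4 in wt serum+LIF. The 3 conditions did not overlap, with a difference of -1.98 ± 0.17 from the knockout (adjusted p = 3.44e-05) and of -1.37 ± 0.17 from FH-Prdm14 (adjusted p = 0.000403). Mdm2, the p53 ubiquitin ligase, fell from 88.3 and 87.4 to 40.1 and 41.3 RPKM, Ccng1 (cyclin G1) from 106 and 141 to 54.2 and 57.8, and the pro-apoptotic Bbc3 from 111 and 102 to 47.6 and 44.9. The values with FH-Prdm14 were 73.9 and 72.0, 112 and 115, and 83.6 and 83.0 RPKM, each above the E294K pair (adjusted p = 0.0147, 0.00375 and 0.0260). With the covariate 4 of the 6 decreases remained and Bbc3 did not (adjusted p = 0.0604), 1 remained in the narrower covariate fit, and 5 to 7 genes were lower when single libraries were left out.

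Of 10 genes of Polycomb repressive complex 2, which methylates lysine 27 of histone H3, 6 were higher and 1 lower (median 0.74). The share called was 70.0%, against 35.6% over all genes. Ezh2, its catalytic subunit, rose from 35.7 and 34.0 to 74.6 and 73.7 RPKM (1.08 ± 0.20, adjusted p = 0.00223) and Jarid2 from 47.8 and 49.1 to 108 and 105 (1.12 ± 0.19, adjusted p = 0.00154). FH-Prdm14 had 52.9 and 60.8 RPKM of Ezh2 and 54.3 and 54.0 of Jarid2, the latter below E294K (0.97 ± 0.19, adjusted p = 0.00566). Of the 6 increases 1, Jarid2, remained in the covariate fit, and Ezh2 did not (adjusted p = 0.105), and none remained in the narrower one. Among ETO proteins and the corepressors they recruit, 7 of 10 were higher and 0 lower (median 0.69), or 70.0% higher against 16.4% over all genes. In the covariate fit 3 remained: Cbfa2t2, Ncor1 (18.4 and 19.9 to 38.2 and 36.4 RPKM) and Sin3a (40.6 and 39.3 to 64.9 and 66.1). None of the 7 remained in the narrower covariate fit, and 3 to 7 of the list were higher when single libraries were left out. Hdac1 had 100 and 104 against 186 and 173 RPKM (adjusted p = 0.00931) and was not called in the covariate fit (0.118) or without E294K G6 (0.0669) or Prdm14-/- G6 (0.0643).

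Of 23 imprinted genes tested 3 were higher and 6 lower (median -0.05), or 39.1% called, near the 35.6% over all genes. The counts were 0 to 1 and 3 to 6 when single libraries were left out. Sgce fell from 19.6 and 19.8 to 4.76 and 5.62 RPKM (-1.83 ± 0.16, adjusted p = 3.44e-05) and Gnas from 85.2 and 80.6 to 24.6 and 31.3. Peg10, the neighbour of Sgce, had 290 and 128 RPKM in Prdm14-/- cells and 197 and 183 in the E294K rescue, with overlapping ranges (adjusted p = 0.974), but 26.6 and 22.1 with FH-Prdm14 (between the rescues 2.94 ± 0.44, adjusted p = 0.00121). Of 20 glycolysis and hypoxia genes 5 were higher and 2 lower (median 0.05), or 35.0% called, again near the share over all genes. The counts were 2 to 4 and 0 to 1 when single libraries were left out. Hk2, a hexokinase, rose from 71.8 and 65.4 to 139 and 130 RPKM (0.96 ± 0.12, adjusted p = 0.000273). Eno1 rose from 25.3 and 27.3 to 121 and 135 RPKM (adjusted p = 0.0196), a call lost without any 1 of the 4 libraries (0.0579 to 0.107), and its sign turned in the covariate fit (-0.20, adjusted p = 0.673). Of 18 cholesterol genes 0 were higher and 1 lower (median -0.003), or 5.56% called, below the 35.6% over all genes. In the lists that follow the share called was 53.8% for basement membrane, 66.7% for mesenchymal switch and 100% for primitive streak genes. It was 0% for Rhox genes, 33.3% for fibroblast and for neural markers, and 66.7% for blood and endothelial markers. Of 13 basement membrane genes 1 was higher and 6 lower (median -0.61), of 6 genes of the mesenchymal switch 1 and 3 (0 and 0 to 3 when single libraries were left out), of 3 primitive streak genes 0 and 3, of 4 Rhox genes 0 and 0, of 3 fibroblast and 3 neural markers 0 and 1 each, and of 3 blood and endothelial markers 2 and 0.

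How far the mutant followed unmutated Prdm14 was measured across clones, so that genes were chosen in libraries that took no part in the measurement. Clones were taken as labelled, although Y-linked genes did not follow the clone names. Genes whose log2 RPKM differed by at least 1 between FH-Prdm14 and Prdm14-/- in clone F10 were read in clone G6, and the reverse. The 817 genes lowered in F10 had a median difference in G6 of -1.57 with FH-Prdm14 and -1.32 with E294K, and 677 and 517 of them were lowered by at least 1. The 579 genes raised in F10 had medians of 1.53 and 0.79, and 473 and 233 of them were raised by at least 1. Over all 12310 genes in G6, FH-Prdm14 lowered 998 and raised 933 by at least 1, and E294K lowered 1537 and raised 1058. With the clones exchanged, the 998 lowered genes had medians of -1.25 and -0.96 and the 933 raised genes 1.01 and 0.42, against 0.04 and -0.02 over all 12310 genes. In both clones the E294K median was thus nearer to the FH-Prdm14 median for lowered than for raised genes, although both rescues are set against the same Prdm14-/- library within a clone. These medians carry no adjustment for GC content or non-polyadenylated RNA, in which the E294K libraries stood apart. The part of library make-up in this order was not tested. Decreases of at least 1 with E294K also outnumbered increases over all genes, in F10 by 1069 to 465. The lowered genes that E294K raised by at least 1 numbered 22 in G6 and 11 in F10. As a description across genes, the E294K difference of one clone had a Pearson correlation of 0.869 with that of the other.

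**Figure D5:**
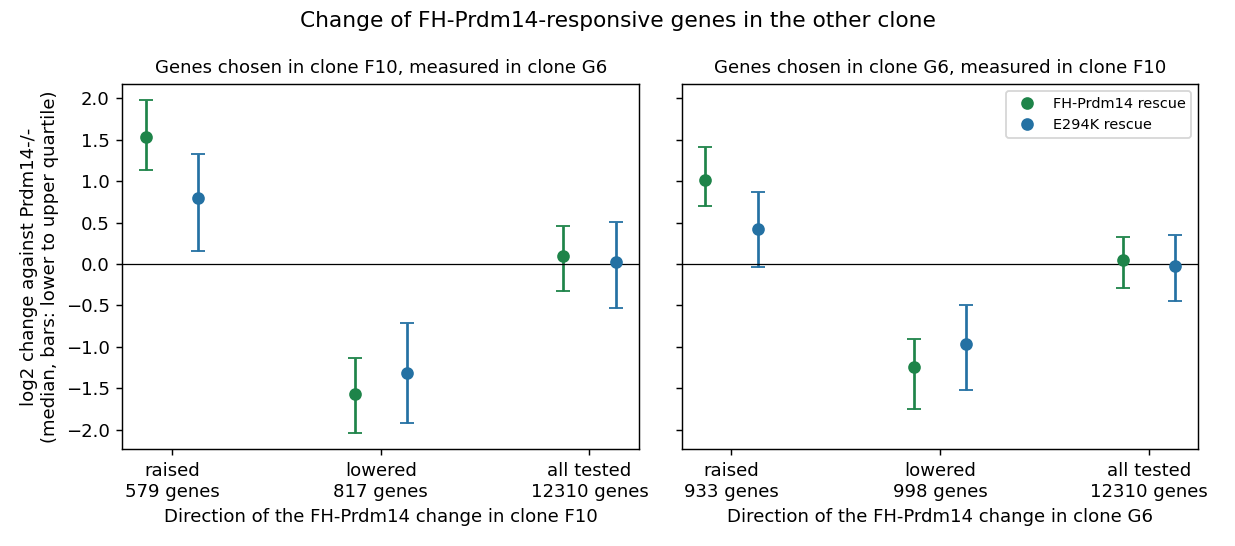
Median log2 change against Prdm14-/- (points) with the 25th to 75th percentile (bars) of genes raised or lowered by FH-Prdm14 in the other clone and of all genes tested, for the FH-Prdm14 and E294K rescues, measured in clone G6 (left) and F10 (right). The lowered genes have E294K medians of -1.32 and -0.96 beside FH-Prdm14 medians of -1.57 and -1.25, and the raised genes 0.79 and 0.42 beside 1.53 and 1.01. Values are not adjusted for library make-up.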

How the data were processed

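Per the labels and the study's methods, RNA was extracted with Trizol, purified on oligo-dT beads, and sequenced as single-end reads, with no step named that marks strand. Alignment by the authors used Tophat and mm9 (the submitters' processing notes list mm9 and GRCm38), counting used HTSeq with RefSeq models, and RPKM values were deposited with gene lengths. Multiplied by gene length and the step of each library, RPKM values gave whole reads per gene (100% within 0.01), which served for depth and for voom, where the E294K rescue differed from Prdm14-/- cells in 4396 genes. Without strand, overlapping and antisense genes cannot be told apart. Values were taken as log2(RPKM + 0.5), which understates changes of low genes. A gene near an RPKM of 1 could pass the filter through 1 condition alone, which favours a difference in that direction. Each condition had its own mean in a limma trend fit of the 15 libraries (limma 3.58.1, R 4.3.3), and p-values were adjusted over the 12310 genes by the Benjamini-Hochberg method (threshold 0.05, two-sided). In simulated data with 200 changed genes of this comparison, 99% of 4-fold and 64% of 2-fold changes were recovered with 8 false calls. The simulation gave all genes the same dispersion and the libraries no differences in make-up. Its rates therefore need not hold for the real libraries.

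The clone names pair the libraries by descent, although Y-linked genes did not follow these names. Deviations of G6 from F10 correlated at 0.0553 between Prdm14-/- and E294K, 0.345 between Prdm14-/- and FH-Prdm14, and 0.0695 between the rescues (Pearson, 12310 genes). The clone block is an alternative. No 2 libraries of a condition agreed within sampling noise (chi-square of reads over genes), and none were merged. Members, gene lists and the rule for named genes were chosen with earlier results of these data known. Named were Prdm14, Cbfa2t2 and 12 markers of the study, the 12 largest called changes in each direction without overlap and with a mean RPKM of at least 5, and list members past the threshold or defining a list. Other settings were pseudocounts of 0.1 and 1, other filters, fewer libraries in the fit, the block, scaling, GC adjustment (lowess, span 0.3) and voom. ChIP-seq samples were not analysed here. Some genes are not reported here.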

Additional observations from a re-analysis of the deposited data

Results flagged for a closer look

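For 5 named genes both rescues passed the test against Prdm14-/- cells in opposite directions and also differed from each other (limma, Benjamini-Hochberg adjustment), which is why they are listed. The 2 contrasts share the Prdm14-/- libraries, so the direct difference, E294K minus FH-Prdm14 on the log2 scale, is given. Usp17lc passed the filter only through the Prdm14-/- libraries, which favours its decrease against them, so its opposite directions are no finding. Dnmt3a differed by 1.62 ± 0.15 (adjusted p = 8.07e-05) and Dnmt3l by 1.57 ± 0.18 (adjusted p = 0.000229), both higher with E294K in 2 of 2 clones, and the call of Dnmt3l against the knockout was lost without the E294K G6 library (adjusted p = 0.0501). Pim2 differed by 2.04 ± 0.24 (adjusted p = 0.000278), with 37.2 and 39.6 RPKM against 9.53 and 8.37. Usp17lc differed by -4.35 ± 0.38 (adjusted p = 6.27e-05), with 0.185 and 0.323 RPKM against 18.6 and 11.8, and its call against the knockout (adjusted p = 0.0201) was lost without any 1 of the 4 libraries (0.0591 to 0.114). Wnt6, a ligand, differed by -2.34 ± 0.38 (adjusted p = 0.00187), with 0.668 and 1.00 RPKM against 6.55 and 5.92, and its call against the knockout (adjusted p = 0.0327) was lost in the covariate fit (0.725), with the clones as a block (0.0530) and without any 1 of the 4 libraries (0.0799 to 0.170). The E294K libraries were higher in non-polyadenylated RNA than those of both other conditions, and the part of this in the differences was not tested beyond the covariate fit, in which the difference between the rescues was called for Dnmt3a (0.00123), Dnmt3l (0.00343), Pim2 (0.00490) and Usp17lc (0.000618) and not for Wnt6 (0.0760). Without the wt 2i libraries in that fit all 5 differences between the rescues were called (0.00120 to 0.0377), but against the knockout only Usp17lc was (0.0385, the others 0.0891 to 0.371).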

How the results depend on the processing

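The E294K rescue differed from Prdm14-/- cells in 4378 genes (2019 higher, 2359 lower), the FH-Prdm14 rescue in 2942, and the rescues from each other in 2223. With a covariate for non-polyadenylated RNA, chosen after the data were seen, the counts were 1391 (727 higher, 664 lower), 4024 and 986. With the covariate and GC adjustment they were 1822 (931 and 891), 4110 and 1291. With the covariate but no wt 2i libraries they were 113 (32 and 81), 4384 and 417. With 1 library left out, counts were 1575 to 3918 (552 to 1921 higher, 1023 to 1997 lower), 1379 to 2720 and 643 to 833, the lowest without Prdm14-/- G6, FH-Prdm14 F10 and E294K F10. Fitted on the 6 libraries of the Prdm14-/- clones they were 6621 (3187 higher), 4912 and 4655, and on the compared conditions the third was 6929. At a mean RPKM of at least 5 the FH-Prdm14 count was 1800 and that between the rescues 1384. With the replicate block by clone the counts were 3822, 2496 and 1738, and on the 6 libraries 7124 (3482 and 3642), 5503 and 5231. With genes chosen at 2 on the log2 scale, the median change in the other clone was 2.28 and -2.44 for FH-Prdm14 and -1.74 for E294K in the lowered genes.

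Of 2571 pairs of a named gene and a setting, 2494 kept their sign. The 28 turns of a gene called in either fit were all in the covariate fits, and 49 were of genes called in neither, 18 of them in other settings. Rmrp and Rprl3 are part of the covariate itself, so the loss of their change there was fixed in advance. Log2 changes of the 28 were, with the covariate, Rmrp -0.13, Rprl3 -0.14, Hist1h4f -0.50, Hist1h4a -0.24, Hist2h2bb -0.18, Snord17 -1.57, Hist1h2bg -0.85, Hist1h1d -0.84, Hist1h1b -1.01 and Eno1 -0.20. Without the wt 2i libraries as well they were Rmrp -0.13, Mir6516 -0.72, Hist1h4f -0.038, Hist2h2bb -0.55, Snord17 -0.56, Hist1h2bg -0.40, Hist1h1d -1.01, Hist1h1b -0.26, Mir3960 0.97, Cnn1 0.075 and Pou3f1 0.047. With GC adjustment as well they were Hist1h4f -0.39, Hist1h4a -0.25, Hist2h2bb -0.23, Hist1h2bg -0.90, Hist1h1d -0.95, Hist1h1b -1.03 and Eno1 -0.19. The block by clone lost the call of 9 of 131 named genes. The cause of these moves was not tested. With 2 clones a condition, 2-fold changes were recovered less often than 4-fold ones in simulation.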

Other observations

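Genes of antigen presentation and of the interferon response, picked out after their values were seen and not part of any list of the report, were lower in the E294K rescue than in Prdm14-/- cells. Gbp2, an interferon-induced GTPase, had 31.5 (G6) and 35.9 (F10) RPKM in Prdm14-/- cells, 4.12 and 5.04 in the E294K rescue and 1.01 and 0.732 in the FH-Prdm14 rescue (E294K minus Prdm14-/- -2.75 ± 0.31 on the log2 scale, limma, adjusted p = 0.000139). Psmb8, a subunit of the immunoproteasome, had 26.2 and 24.3, then 4.62 and 4.68, then 1.53 and 0.961 RPKM, and for both genes the E294K values lay between the other conditions without overlap. Tap1, which carries peptides to class I molecules, fell from 35.7 and 25.1 to 5.03 and 5.82 RPKM, its partner Tapbp from 54.2 and 48.4 to 16.4 and 16.0, and B2m, the class I light chain, from 30.2 and 26.4 to 11.2 and 12.8, with adjusted p of 0.000178, 0.000475 and 0.00579. The chemokine Cxcl10 fell from 5.96 and 11.3 to 0.571 and 0.886 RPKM and the membrane protein Bst2 from 524 and 478 to 179 and 176. All 7 were called in the covariate fit (adjusted p from 0.00185 for B2m to 0.0249 for Tapbp), Tap1 (0.113) and Tapbp (0.253) were not when the wt 2i libraries were left out of it, and the call of B2m was lost without the Prdm14-/- G6 library (adjusted p = 0.0548). Irf9, a transcription factor of the response, had 4.04 and 3.45 RPKM in Prdm14-/- cells and 3.81 and 3.58 in the E294K rescue (adjusted p = 0.953). As the 7 genes were chosen for their decrease, the values are a description.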
